A study of Mus musculus with 8 samples.

Results

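The genes described here are the extracellular matrix, integrin and protease genes of a table of differentially expressed genes in mouse embryonic fibroblasts (MEFs), the connective tissue cells of an embryo in culture. They were chosen by the start of their symbol (collagens *Col*, matrix metalloproteinases *Mmp*, *Adam* and *Adamts*, *Serpin*, integrins *Itg*, laminins *Lama*, *Lamb* and *Lamc*, and *Lox*, *Timp*, *Fbln* and *Thbs*), with *Col14a1* left out, which gave 28 of the 875 listed genes. No *Lox*, *Fbln* or *Thbs* gene was listed. RNA depleted of ribosomal RNA was sequenced from 4 groups of 2 libraries each. The control was the parental line, in which *Eed* carries loxP sites, and the other 3 lines were derived from it and therefore carried or had carried the same floxed alleles. EZHIP cells expressed human *EZHIP* and K27M cells expressed H3.3 K27M, each stably from a lentivirus, with puromycin selection of transduced cells. EED-null cells were a single clone in which Cre, delivered by a hit-and-run lentivirus, had deleted *Eed*. As the control was the parental line, a change from control cannot be told apart from effects of lentiviral delivery, selection or cloning. This holds also for a change that the 3 lines share. The table holds no row for *Eed*, and the deletion could not be checked from it. Nothing in the labels says that the 2 libraries of a group came from separate cultures, so a p-value measures only the spread between these libraries, which may be technical.

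PRC2 is the enzyme complex that methylates lysine 27 of histone H3 and keeps developmental genes silent, and EED is the subunit through which it reads that mark. EZHIP and the K27M histone both inhibit its catalytic activity. Fibroblasts build the interstitial matrix: fibrillar collagens and laminins form its fibres and basement membranes, integrins anchor cells to it, metalloproteinases of the MMP, ADAM and ADAMTS families cut it or shed proteins from the cell surface, and TIMPs and serpins restrain proteases.

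The values are normalized expression, estimated reads divided by 1 size factor per library, and are not scaled by gene length. Estimated reads on the 28 genes were between 10648 and 44329 per library, out of 209390 to 424561 on all listed genes. Every listed gene differed by 2-fold or more between EZHIP and control cells, the threshold the authors set, so that contrast is given below as a description and not as a test. The comparisons of K27M or EED-null with control share the control libraries with that choice, and the comparisons with EZHIP share the EZHIP libraries. The difference between K27M and EED-null uses neither, although its SE is estimated from all 8 libraries. The K27M replicates differed most of the 4 groups, so a shared SE may be too small for comparisons with K27M. Differences are on the log2(value + 1) scale with the standard error (SE) from limma over all 8 libraries, a scale that understates the change of low genes, and a gene is called when the difference is 2-fold or more with an adjusted p below 0.05. An exact permutation test of 2 libraries against 2 cannot go below 0.333. Of 13 fibroblast markers only *Col3a1*, *Dcn* and *Fap* were listed, so the identity of the cells could not be checked beyond these.

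Of the 28 genes, 10 were higher and 18 lower in EZHIP cells than in control cells. The higher ones were all 5 listed MMPs, *Timp3*, *Serpinb9b*, *Itga6*, *Adamts17* and *Col28a1*. The lower ones were 8 of 9 ADAM and ADAMTS genes, 4 of 5 collagens, all 3 laminins, 2 of 3 integrins and *Serpine2*. In EZHIP against control limma called each of the 28, as it did 99.1% of all listed genes (56.0% higher and 43.1% lower), which follows from how the list was made. The plot of all libraries shows each gene on a common log2 scale.

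**Figure D1:**
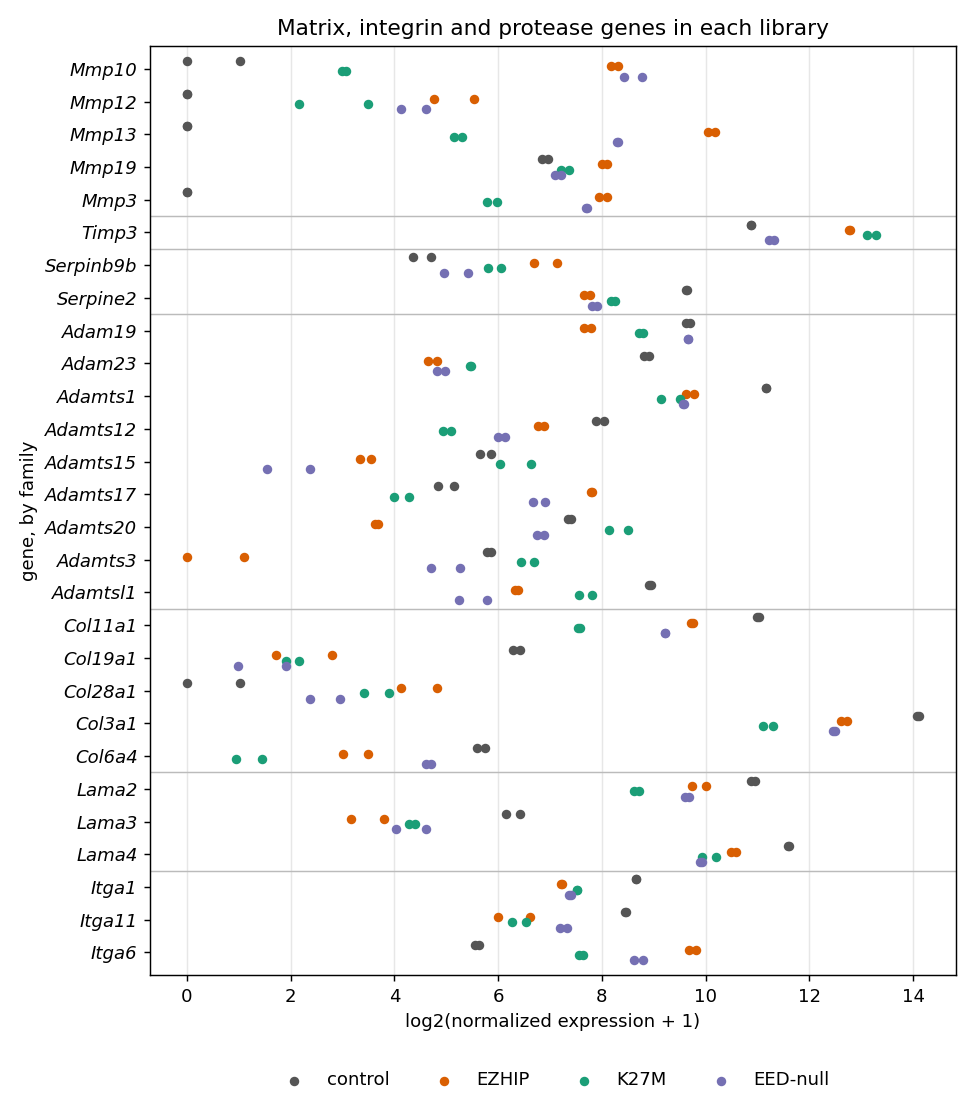
Each row is a gene, ordered by family, and each point is 1 of 8 libraries; the horizontal axis is log2(normalized expression + 1). Libraries of a group lie close together, the control points of *Mmp3*, *Mmp12* and *Mmp13* lie at 0, and those of the collagens other than *Col28a1*, of the laminins and of *Itga1* and *Itga11* lie to the right of the other 3 lines.

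The 4 genes furthest above control, in EZHIP and in EED-null cells alike, were metalloproteinases that are neighbours on chromosome 9. In mm9, *Mmp13* (ENSMUSG00000050578.9, 7272514 to 7283333), *Mmp12* (ENSMUSG00000049723.8, 7344381 to 7369499), *Mmp3* (ENSMUSG00000043613.7, 7445822 to 7455972) and *Mmp10* (ENSMUSG00000047562.2, 7502352 to 7510238) lie on the plus strand within 237.7 kb. The annotation has 6 protein-coding genes in this stretch, and the other ones, *Mmp1a* and *Mmp1b*, are not listed. No other listed gene with a single locus lay within 2 Mb of the cluster. *Mmp13* is a collagenase that cuts fibrillar collagen, *Mmp3* and *Mmp10* are stromelysins with broad substrates that can also activate other MMPs, and *Mmp12* is the macrophage elastase. The 3′ end of *Mmp12* overlaps *Mmp1b* on the opposite strand, and reads of these genes cannot be told apart if the counting ignored strand.

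Their promoters are shown because the 4 genes moved together. Each run is the 250 bases before the transcription start from RefSeq (GRCm38.p6), given 5′ to 3′, and each matched 1 place in the mm9 genome exactly, on chromosome 9. Capitals mark TGANTCA, the core site bound by AP-1 (Jun and Fos) factors, which reads the same on both strands, and TATAAA, the TATA box, searched on both strands. For *Mmp12*, which has 2 annotated starts, the promoter of the downstream start is shown.
Mmp13 (chr9:7272264-7272513): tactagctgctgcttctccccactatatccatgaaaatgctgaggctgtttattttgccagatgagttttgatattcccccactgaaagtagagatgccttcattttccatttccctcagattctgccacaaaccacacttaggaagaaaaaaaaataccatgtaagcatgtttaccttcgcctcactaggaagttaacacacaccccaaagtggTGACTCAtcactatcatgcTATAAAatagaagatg
Mmp12 (chr9:7347124-7347373): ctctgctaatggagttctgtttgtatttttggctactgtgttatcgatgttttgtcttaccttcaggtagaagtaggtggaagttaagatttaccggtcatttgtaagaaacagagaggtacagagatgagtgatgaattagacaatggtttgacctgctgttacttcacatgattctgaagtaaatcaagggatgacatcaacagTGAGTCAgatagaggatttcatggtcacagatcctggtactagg
Mmp3 (chr9:7445572-7445821): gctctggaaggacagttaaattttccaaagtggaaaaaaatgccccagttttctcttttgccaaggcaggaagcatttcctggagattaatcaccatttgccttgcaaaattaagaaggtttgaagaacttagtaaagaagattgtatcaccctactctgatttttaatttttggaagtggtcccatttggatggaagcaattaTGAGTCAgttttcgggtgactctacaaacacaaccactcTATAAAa
Mmp10 (chr9:7502092-7502341): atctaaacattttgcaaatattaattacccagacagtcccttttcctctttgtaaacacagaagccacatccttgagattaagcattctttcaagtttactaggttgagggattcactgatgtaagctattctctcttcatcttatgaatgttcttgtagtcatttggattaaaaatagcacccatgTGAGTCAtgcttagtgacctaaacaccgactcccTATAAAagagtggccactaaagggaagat
Each of these 4 promoters held 1 TGANTCA match, which began 35 bases before the start in *Mmp13*, 44 in *Mmp12*, 46 in *Mmp3* and 63 in *Mmp10*. The promoter of the upstream *Mmp12* start held none. Among the 32851 RefSeq promoters of this length 6.75% held the motif, and among the 740 of listed genes 5.81% did. Of the 25 promoters found for the 28 genes, 5 (20%) held it. Besides these 4, a promoter of *Adam19*, a gene lower than control in EZHIP cells, held it 131 bases before the start. *Mmp13*, *Mmp3* and *Mmp10* also held TATAAA, 16, 7 and 29 bases before the start, against 12.37% of all promoters. *Adamts1* and *Col3a1*, both lower than control in the 3 lines, held TATAAA too, 32 and 117 bases before the start. CpG dinucleotides numbered 1, 2, 1 and 1 in the 4 runs in the order shown. The median was 6 over all promoters, 6 over those found for the 28 genes and 12 over those of listed genes. The promoters of *Col3a1*, *Lama2* and *Col28a1* held 0. A match is a description of the sequence and not evidence of a bound site.

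In control cells these genes were at the limit of detection. *Mmp13*, *Mmp3* and *Mmp12* were listed at 0 in both control libraries, and *Mmp10* had 1.03 and 0, which is 1 read in all. *Mmp13* was at 1056 and 1160 with EZHIP, 316 and 310 without EED, and 34.3 and 38.5 with K27M. Its 4 groups did not overlap, in the order EZHIP, EED-null, K27M and control. Taking 3 reads per control library as the limit, *Mmp13* was at least 419-fold higher than control in EZHIP cells, 118-fold in EED-null cells and 13.75-fold in K27M cells. limma called it higher in EED-null cells (log2 difference 8.29, SE 0.11, adjusted p = 7.92e-08) and in K27M cells (5.22, SE 0.11, adjusted p = 5.53e-07). Fitted differences against a group at 0 depend on the added 1, and the bounds do not.

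*Mmp3* was at 272 and 245 with EZHIP, 205 and 208 without EED, and 62.1 and 54.2 with K27M. By the same limit it was at least 97.7-fold, 78.1-fold and 22.0-fold higher than control. *Mmp10* was at 286 and 315 in EZHIP cells and at 341 and 435 in EED-null cells, but only at 7.42 and 6.99 in K27M cells. Its EED-null libraries were both above its EZHIP libraries, with a log2 difference of 0.36 (95% interval -0.44 to 1.16, adjusted p = 0.36 from limma). By reads, *Mmp10* in K27M cells was 16.8 times control with a 95% counting interval of 2.6 to 703, since control held 1 read. *Mmp12*, the lowest of the cluster per kb of transcript in each of the 3 lines, was at 26.0 and 45.6 with EZHIP, 23.6 and 16.5 without EED, and 10.2 and 3.50 with K27M. It was at least 13.5-fold, 7.56-fold and 2.59-fold higher than control. All 4 genes were called higher in both K27M and EED-null cells.

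**Figure D2:**
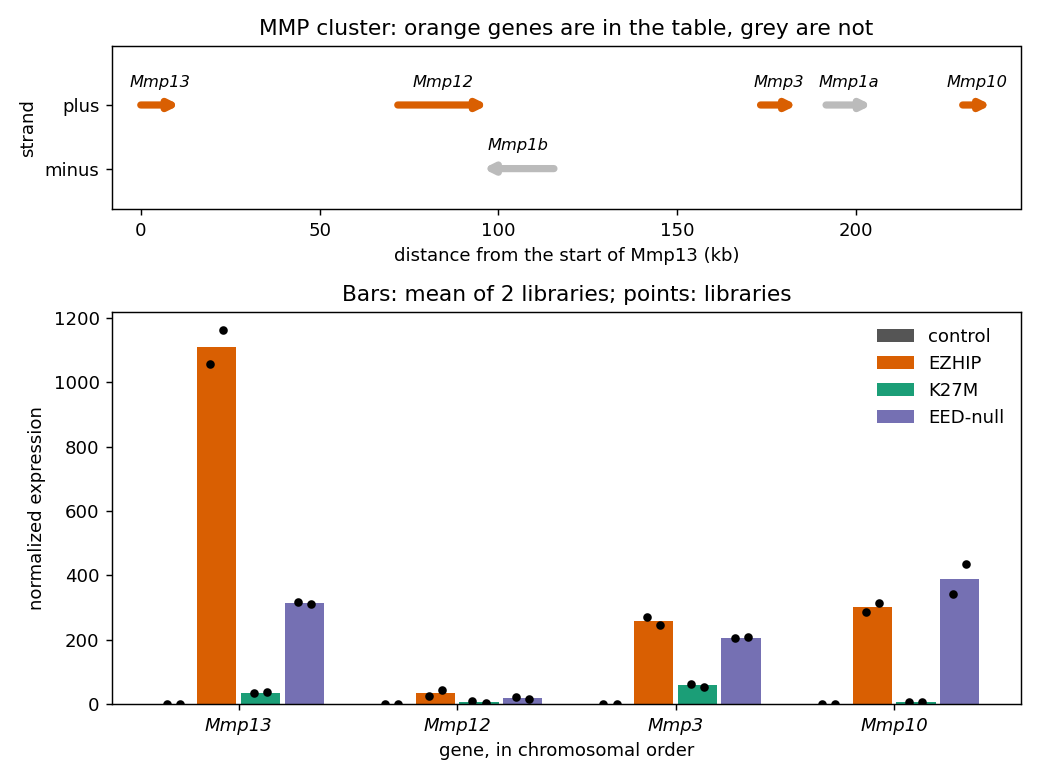
The upper panel maps the 6 genes of the cluster by strand against the distance in kb from the start of *Mmp13*. The lower panel gives normalized expression, with bars for the mean of 2 libraries and points for the libraries; control is at or near 0 throughout, and K27M stays below EZHIP and EED-null for each gene.

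Within the cluster, K27M cells were below EED-null cells in all 4 genes, and each difference was called. It was -5.56 (SE 0.33, adjusted p = 2.23e-05 from limma) for *Mmp10*, -3.07 (SE 0.11, adjusted p = 3.82e-06) for *Mmp13*, -1.82 (SE 0.11, adjusted p = 2.65e-05) for *Mmp3* and -1.55 (SE 0.47, adjusted p = 0.0245) for *Mmp12* on the log2 scale. The *Mmp12* call was lost without K27M replicate 2 (log2 difference -0.89, adjusted p = 0.0946 from limma) and without EED-null replicate 1 (-1.30, adjusted p = 0.112). The order of the genes differed between lines. Per kb of the longest annotated transcript, *Mmp3* led the cluster in K27M cells with 32.4, followed by *Mmp13* with 13.6 and *Mmp10* with 4.19. In EED-null cells the order was *Mmp10* with 226, *Mmp13* with 117 and *Mmp3* with 115, and in EZHIP cells *Mmp13* led with 414 per kb.

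*Mmp19* (ENSMUSG00000025355.6), on chromosome 10 and outside this cluster, is a widely expressed MMP. It was at 123 and 114 in control, 254 and 273 with EZHIP, 163 and 147 with K27M, and 136 and 148 without EED. EZHIP stood above the other libraries, and the differences from control were 0.39 (SE 0.11) in K27M and 0.26 (SE 0.11) in EED-null cells, neither called. Rescaling the libraries on the listed genes turned both to the other side of 0, at -0.07 and -0.14, and took the EZHIP difference from 1.15 to 0.83, under 2-fold.

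Protease inhibitors did not follow 1 pattern. *Timp3* (ENSMUSG00000020044.7, chromosome 10), a matrix-bound inhibitor of MMPs and several ADAM proteases, had 1866 and 1881 in control, 7071 and 6932 with EZHIP, 8835 and 9943 with K27M, and 2556 and 2384 without EED. K27M and EZHIP libraries were far above the others. Against control the log2 difference was 2.32 (SE 0.11, adjusted p = 6.32e-06 from limma) in K27M cells. In EED-null cells it was 0.40 (SE 0.11, adjusted p = 0.0126), below the 2-fold minimum. K27M and EED-null cells differed by 1.92 (SE 0.11, adjusted p = 1.67e-05 from limma), with K27M the higher, the reverse of the MMP cluster. Per kb of transcript, *Timp3* was at 1988 in K27M and 1483 in EZHIP cells, where it led the 28 genes, and at 523 in EED-null and 397 in control cells. Its promoter, shown as a contrast to those of the MMPs, held no TGANTCA or TATAAA match and 18 CpG dinucleotides, which are capitalised.
Timp3 (mm9, plus strand, chr10:85762907-85763156): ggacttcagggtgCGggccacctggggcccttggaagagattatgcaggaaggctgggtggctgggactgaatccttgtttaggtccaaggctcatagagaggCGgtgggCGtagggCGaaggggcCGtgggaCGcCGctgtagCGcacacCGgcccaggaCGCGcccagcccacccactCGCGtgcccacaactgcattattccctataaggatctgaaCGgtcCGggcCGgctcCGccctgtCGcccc

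*Serpine2*, protease nexin-1, a secreted inhibitor of thrombin and plasminogen activators, was at 783 and 799 in control, 201 and 217 with EZHIP, 303 and 288 with K27M, and 223 and 238 without EED. All 3 lines were below control without overlap. The log2 difference from control was -1.42 (SE 0.10, adjusted p = 3.13e-05 from limma) for K27M and -1.77 (SE 0.10, adjusted p = 1.26e-05) for EED-null. *Serpinb9b*, a mouse relative of the granzyme B inhibitor *Serpinb9*, was at 19.5 and 25.1 in control, 103 and 140 with EZHIP, 54.7 and 65.6 with K27M, and 41.6 and 30.0 without EED. It was called higher in K27M cells (1.40, SE 0.24), a call that rescaling on the listed genes ended at 0.95, and not in EED-null cells (0.65, SE 0.24). Closely related *Serpinb9* copies could share its reads, so its level is uncertain.

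The 9 ADAM and ADAMTS genes included falls common to the 3 lines and genes that set the lines apart. Against control, 0 were called higher and 4 lower in K27M cells, beside 41.4% and 20.0% of all listed genes. In EED-null cells 1 was called higher and 5 lower, beside 39.9% and 25.1%. Of the 9, 8 were already lower in EZHIP cells, on which genes were listed. Of all 380 listed genes lower there, 39.7% were called lower for K27M and 55.0% for EED-null. Called lower in all 3 lines were *Adam23*, *Adamts1*, *Adamts12* and *Adamtsl1*. *Adam23*, which has no protease activity and acts in adhesion, was at 446 and 477 in control, 27.2 and 23.9 with EZHIP, 42.7 and 43.7 with K27M, and 30.5 and 27.1 without EED. The log2 difference from control was -3.39 (SE 0.12, adjusted p = 2.45e-06 from limma) for K27M and -3.96 (SE 0.12, adjusted p = 1.1e-06) for EED-null. *Adamts1*, a protease of versican and aggrecan and the highest member of the family, was at 2293 and 2283 in control, 875 and 783 with EZHIP, 562 and 722 with K27M, and 765 and 752 without EED. No group overlapped another for *Adamts1*, and all 3 lines lay below control.

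Other ADAMTS genes separated the lines. *Adamts15*, a proteoglycan-cutting protease, was at 49.3 and 57.6 in control, 10.7 and 9.12 with EZHIP, 64.9 and 97.9 with K27M, and 4.16 and 1.94 without EED, which is 5 reads. EED-null cells were lowest, and K27M cells were highest but not called against control (0.57, SE 0.32). K27M and EED-null cells differed by 4.37 (SE 0.32, adjusted p = 4.54e-05 from limma), the largest difference in favour of K27M among the 28 genes. Under the alternative settings this difference ran from 3.41 to 4.78. *Adamts17*, which acts on fibrillin microfibrils, ran the other way, with 27.7 and 34.7 in control, 220 and 223 with EZHIP, 101 and 119 without EED, and 14.8 and 18.4 with K27M. It was called higher than control in EED-null cells (1.79, SE 0.17). In K27M cells it was at -0.87 (SE 0.17), not called, although it passed 2-fold without control replicate 1 (-1.03) or K27M replicate 2 (-1.02) and after rescaling on the listed genes (-1.31). *Adamtsl1*, an ADAMTS-like protein without the protease domain, was at 490 and 476 in control, 82.8 and 78.7 with EZHIP, 187 and 223 with K27M, and 54.1 and 36.8 without EED. It was called lower than control in both of the latter, and K27M stood 2.17 (SE 0.20) above EED-null.

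*Adamts3*, *Adamts20* and *Adam19* were low in EZHIP cells and not called against control in the other lines. *Adamts3*, which removes the amino-terminal propeptide of procollagen and activates VEGF-C, was at 57.5 and 53.9 in control and at 0 and 1.14 in EZHIP cells, which is 1 read. By reads, control was 95.4 times EZHIP with a 95% counting interval of 16.8 to 3797. K27M cells had 86.3 and 102, and EED-null cells 37.4 and 25.2, on either side of control. In EED-null cells the difference from control was -0.84 (SE 0.37), which rescaling took past the threshold (-1.22, adjusted p = 0.0215 from limma). K27M and EED-null cells differed from each other by 1.58 (SE 0.37, adjusted p = 0.00881 from limma). The difference stayed above 2-fold but lost its call, by adjusted p, without K27M replicate 2 (1.46) or EED-null replicate 2 (1.30). It did so too with a pseudocount of 0.1 (1.61, adjusted p = 0.237 from limma). The shared SE there also takes in the EZHIP values of 0 and 1.14, which a small pseudocount sets far apart. *Adamts20*, known for its role in melanoblast migration, was at 167 and 162 in control, 11.8 and 11.4 with EZHIP, 280 and 362 with K27M, and 116 and 107 without EED. Its difference from control in K27M cells was 0.95 (SE 0.14), just under 2-fold, and reached 1.13 without K27M replicate 1. *Adam19*, a sheddase of neuregulin, had 826 and 786 in control, 219 and 199 with EZHIP, 419 and 442 with K27M, and 812 and 803 without EED. EED-null and control libraries overlapped, with a difference of 0.00 (95% interval -0.25 to 0.25), and K27M lay at -0.90 (SE 0.10), which rescaling took past 2-fold at -1.36.

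**Figure D3:**
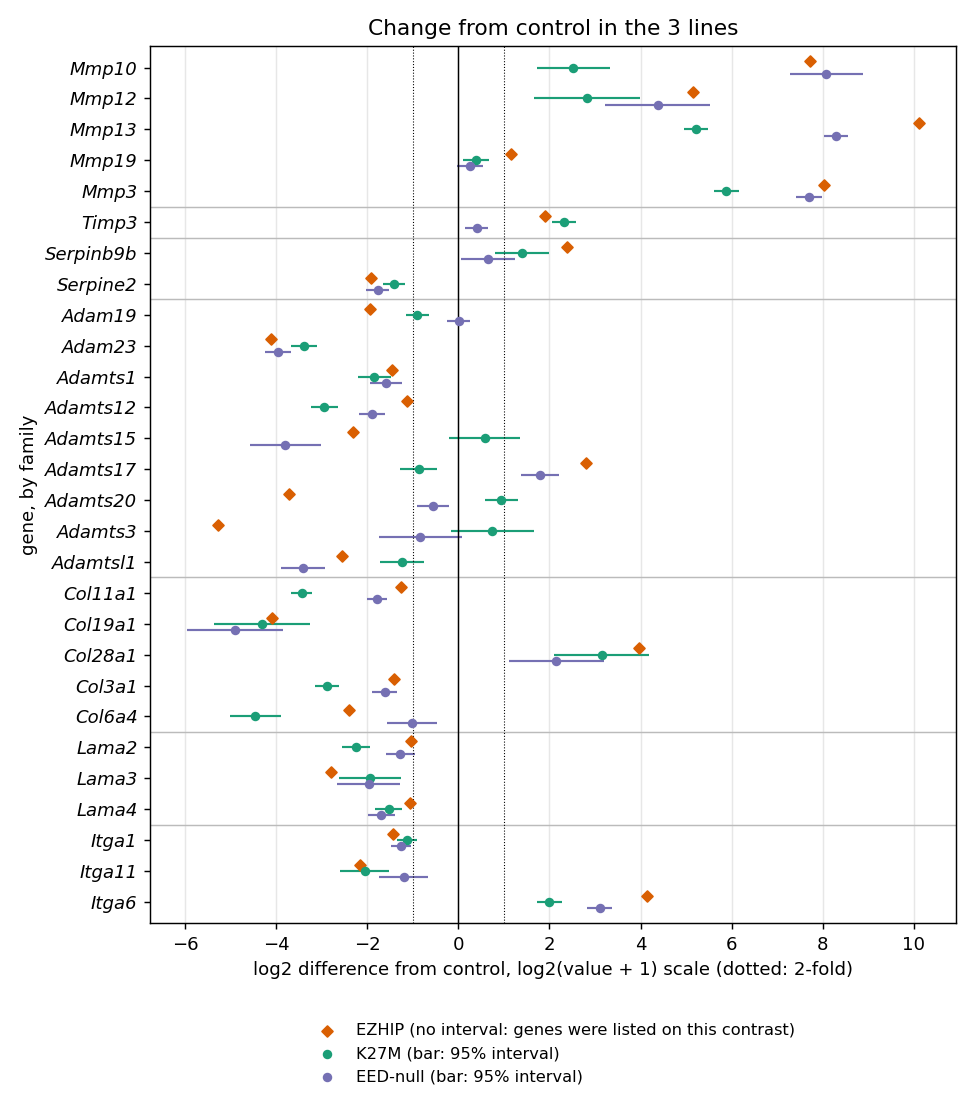
Points give the log2 difference from control of each gene, on the log2(value + 1) scale, in EZHIP (diamonds), K27M and EED-null cells (circles, with 95% intervals from limma); dotted lines mark 2-fold. The MMP cluster lies far to the right in all 3 lines, the laminins and most collagens lie to the left, and the ADAMTS genes spread over both sides.

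Collagens other than *Col28a1* were called lower in all 3 lines, and 3 of the 4 were called lower in K27M than in EED-null cells. Of all listed genes, 26.6% were called lower in K27M than in EED-null cells. *Col3a1* (ENSMUSG00000026043.11, chromosome 1), the fibrillar collagen of soft connective tissue, was the highest gene of the set in control cells per kb of transcript, with 17665 and 17245 in control, 6797 and 6268 with EZHIP, 2206 and 2517 with K27M, and 5733 and 5641 without EED. No group overlapped another. The log2 difference from control was -2.89 (SE 0.11, adjusted p = 3.63e-06 from limma) for K27M and -1.62 (SE 0.11, adjusted p = 2.68e-05) for EED-null. K27M and EED-null cells differed by -1.27 (SE 0.11, adjusted p = 0.000106 from limma). Per kb of transcript it stood at 3137 in control and 424 in K27M cells.

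*Col11a1*, a minor fibrillar collagen that sets fibril diameter, gave the same order, with 2078 and 2025 in control, 861 and 838 with EZHIP, 591 and 595 without EED, and 185 and 191 with K27M. *Col6a4*, a chain of microfibrillar collagen VI, was at 52.4 and 47.2 in control, 7.10 and 10.3 with EZHIP, 25.0 and 23.3 without EED, and 0.927 and 1.75 with K27M, which is 3 reads. By reads, EED-null was 17.7 times K27M with a 95% counting interval of 5.67 to 89.5. Its fall in EED-null cells (1.02 on the log2 scale, SE 0.23) passed 2-fold only narrowly and did not without control replicate 1 (-0.94), without EED-null replicate 2 (-0.97) or with a pseudocount of 5 (-0.91). *Col19a1*, a collagen of basement membrane zones, went from 85.2 and 76.8 in control to 5.92 and 2.28 with EZHIP, 2.78 and 3.50 with K27M, and 2.77 and 0.969 without EED, where the EZHIP range overlapped those of both other lines. *Col28a1*, of which control held 1 read (1.03 and 0), was at 16.6 and 27.4 with EZHIP, 13.9 and 9.62 with K27M, and 4.16 and 6.78 without EED. It was called higher in both K27M and EED-null cells, by a few reads, and not in EED-null cells with a pseudocount of 5 (0.92).

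Markers of other cell types were sparse in the list. Of 8 epithelial markers only *Epcam* was listed, at 3.69 to 6.16 in control, 10.3 to 21.3 in EZHIP, 68.6 to 81.3 in K27M and 20.3 to 38.8 in EED-null libraries. Of 7 endothelial markers only *Kdr* was listed, at 9.24 to 9.60 in control, 51.3 to 52.1 in EZHIP, 157 to 222 in K27M and 10.7 to 11.1 in EED-null libraries. Both were highest in the K27M libraries, where *Col3a1*, *Col11a1* and *Col6a4* were lowest. The other listed fibroblast markers did not follow *Col3a1* in K27M cells. *Dcn*, decorin, a proteoglycan that binds collagen fibrils, was at 364 and 380 in control, 129 and 179 with EZHIP, 3192 and 3255 with K27M, and 69.3 and 73.6 without EED. It was called higher in K27M (3.11, SE 0.17) and lower in EED-null cells (-2.36, SE 0.17). *Fap*, a membrane protease of activated fibroblasts, was at 82.1 and 94.5 in control, 8.28 and 13.7 with EZHIP, 162 and 104 with K27M, and 2.77 and 8.72 without EED, and was called lower in EED-null (-3.88, SE 0.49) and not called in K27M cells (0.56, SE 0.49). The part of these markers in the differences was not tested. Of 8 cartilage and bone markers only *Sox9* was listed, at 18.5 to 28.8 in control, 95.9 to 100 in EZHIP, 25.4 to 26.9 in K27M and 71.7 to 83.2 in EED-null libraries. Haematopoietic, muscle and neural or glial markers were not listed. In bulk RNA, fewer cells of a type and less RNA per cell cannot be told apart.

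The 3 laminin alpha chains, which with beta and gamma chains assemble the laminins of basement membranes, were called lower in both K27M and EED-null cells. *Lama4*, of vessels and mesenchyme, was at 3135 and 3079 in control, 1541 and 1441 with EZHIP, 979 and 1176 with K27M, and 979 and 946 without EED. The log2 difference from control was -1.53 (SE 0.12, adjusted p = 5.14e-05 from limma) for K27M and -1.69 (SE 0.12, adjusted p = 3.26e-05) for EED-null. *Lama2*, the chain of muscle laminin, was at 1870 and 1975 in control, 1031 and 849 with EZHIP, 390 and 418 with K27M, and 815 and 772 without EED. *Lama3*, the chain of epithelial basement membranes, was low, at 69.8 and 84.9 in control, 13.0 and 7.98 with EZHIP, 18.5 and 20.1 with K27M, and 15.2 and 23.3 without EED. No laminin was called between K27M and EED-null. *Lama2*, at -0.97 (SE 0.13), came nearest and passed 2-fold after rescaling on the listed genes (-1.04) and without K27M replicate 2 (-1.02) or EED-null replicate 2 (-1.01).

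Integrin alpha chains moved in opposite directions. *Itga6* (ENSMUSG00000027111.8, chromosome 2), which pairs with beta chains to form laminin receptors, was at 46.2 and 48.7 in control, 897 and 821 with EZHIP, 187 and 198 with K27M, and 439 and 394 without EED. The 4 groups did not overlap. It was called higher in EED-null cells (3.11, SE 0.11, adjusted p = 2.35e-06 from limma) and in K27M cells (95% interval 1.73 to 2.27, adjusted p = 1.25e-05), and K27M was below EED-null by -1.11 (SE 0.11, adjusted p = 0.000199). *Itga1* and *Itga11*, the alpha chains of collagen-binding integrins, were called lower in both. *Itga1* was at 403 and 401 in control, 149 and 147 with EZHIP, 182 and 184 with K27M, and 165 and 168 without EED, and *Itga11* at 349 and 351, 97.1 and 62.7, 76.1 and 91.8, and 159 and 144 in the same order.

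**Figure D4:**
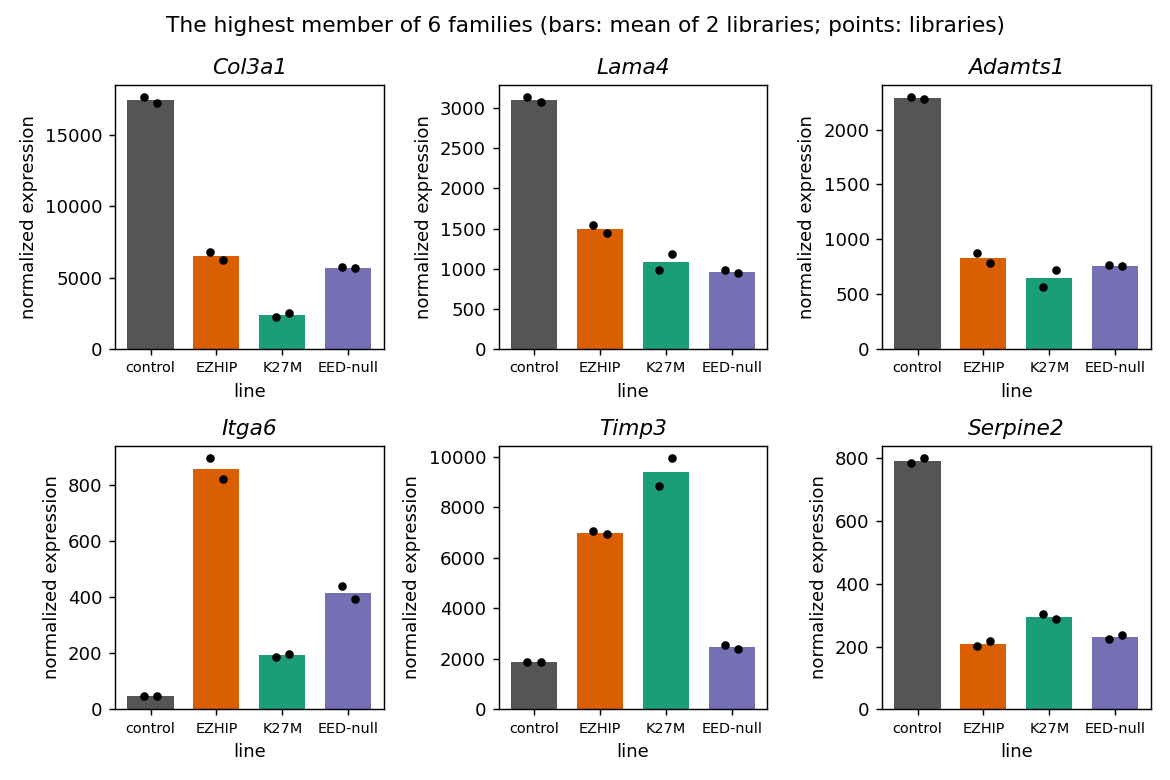
Normalized expression of 6 genes, each the highest of its family by its mean over the 8 libraries, with bars for the mean of 2 libraries and points for the libraries. *Col3a1*, *Lama4*, *Adamts1* and *Serpine2* are highest in control, *Itga6* in EZHIP and *Timp3* in K27M cells.

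Counted over the 28 genes, 8 were called higher and 14 lower in K27M cells than in control, against 41.4% and 20.0% of all 875 listed genes. For EED-null the counts were 7 and 15, against 39.9% and 25.1%. In all, 22 of the 28 were called in each comparison, beside 61.4% and 65.0% of listed genes. The share of lower genes was above the background in both, and so was the share lower in EZHIP cells by which genes were listed. Among the 18 genes lower in EZHIP cells, 14 were called lower for K27M and 15 for EED-null, while of all 380 such listed genes 39.7% and 55.0% were. Their median log2 difference was -1.89 in K27M and -1.65 in EED-null cells, beside -0.68 and -1.14 over the 380. Among the 10 higher in EZHIP cells, 8 and 7 were called higher, beside 62.4% and 68.3% of all 495, with medians of 2.42 and 2.63 beside 1.61 and 1.93. The medians were already larger in size in EZHIP against control, on which genes were listed. There they were 4.06 for the 10 beside 2.08, and -2.05 for the 18 beside -1.63. Of the 28, 14 were called lower in all 3 lines and 6 higher in all 3: *Mmp3*, *Mmp10*, *Mmp12*, *Mmp13*, *Itga6* and *Col28a1*. No gene was called in opposite directions against control by any pair of lines with the reported settings. *Adamts17*, called higher in EZHIP and EED-null cells, became called lower in K27M cells after rescaling on the listed genes (-1.31). Because the 3 comparisons share the control libraries, the counts for the 3 lines are not independent of each other. Calls shared by all 3 lines were not counted over all listed genes, so the 14 and 6 are not shown to be particular to the 28.

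K27M and EED-null cells were also compared directly. limma called 15 of the 28 genes (53.6%), 5 higher and 10 lower in K27M cells. Among all listed genes 54.4% were called, 27.8% higher and 26.6% lower. A fit of these 4 libraries alone gave the same counts, 5 and 10. Higher in K27M cells were *Adamts15*, *Adamtsl1*, *Timp3*, *Adamts3* and *Adamts20*. Lower were the 4 MMPs of the cluster, *Col6a4*, *Col11a1*, *Col3a1*, *Adamts17*, *Itga6* and *Adamts12*. *Adamts12*, a protease of cartilage oligomeric matrix protein, was at 263 and 236 in control, 117 and 108 with EZHIP, 29.7 and 33.2 with K27M, and 69.3 and 63.0 without EED. Its K27M minus EED-null difference of -1.05 came under 2-fold without K27M replicate 1 (-0.97), without EED-null replicate 1 (-0.98) and with a pseudocount of 5 (-0.97). For *Lama4* the difference was 0.16 with a 95% interval of -0.14 to 0.45, and for *Itga1* 0.13 with an interval of -0.08 to 0.35, so a 2-fold difference lay outside both intervals.

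**Figure D5:**
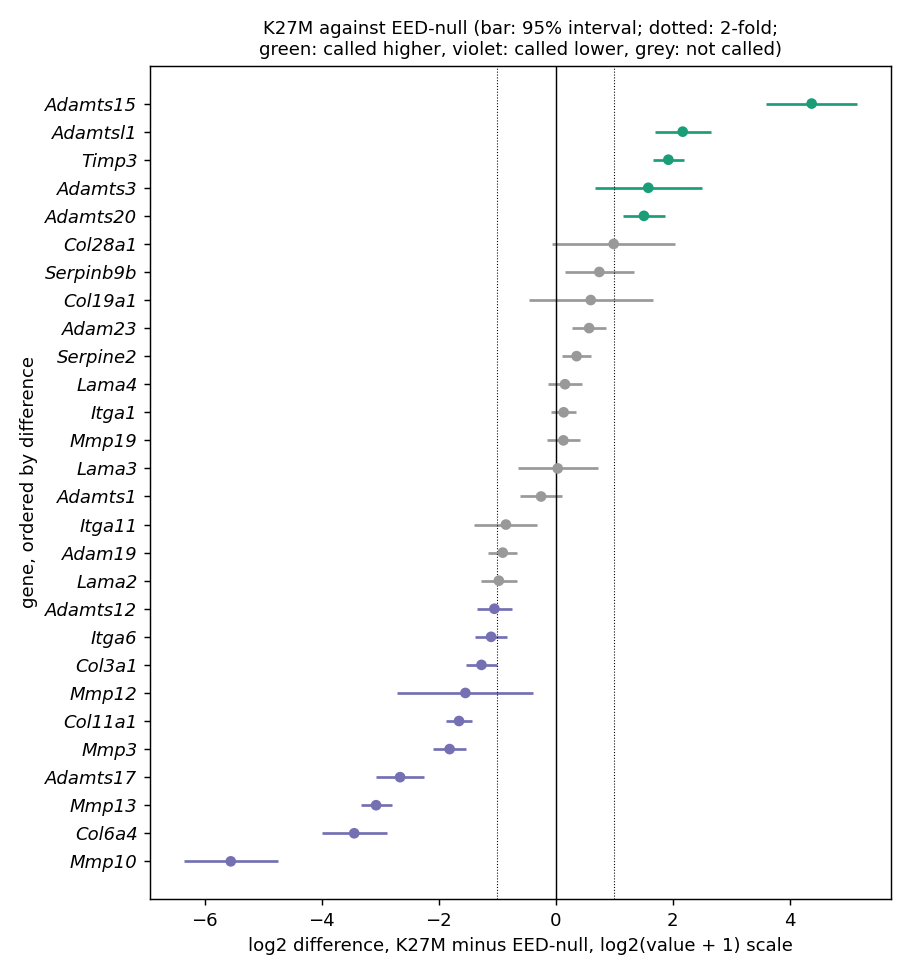
Each row is a gene, and the horizontal axis is the log2 difference of K27M minus EED-null on the log2(value + 1) scale, with the 95% interval from limma; coloured points were called. *Mmp10*, at -5.56, and *Adamts15*, at 4.37, stand at the ends, and 13 genes in grey were not called.

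Against EZHIP cells, 5 genes were called higher and 11 lower in K27M cells, beside 32.6% and 26.2% of listed genes (58.7% in either direction). The counts for EED-null were 4 and 7, beside 25.1% and 19.8% (44.9% in either direction). In either direction, 57.1% of the 28 genes were called for K27M and 39.3% for EED-null. All these shares are affected by the listing of genes on EZHIP cells. *Adamts3*, *Adamts20* and *Adam19* were called higher than in EZHIP cells in both lines, and *Mmp13*, *Itga6* and *Adamts17* lower in both. For K27M the *Adam19* difference came under 2-fold without EZHIP replicate 2 (0.97) and after rescaling (0.90). For EED-null the *Itga6* difference did so without EZHIP replicate 1 (-0.98) or EED-null replicate 2 (-0.96), and that of *Adamts17* without EZHIP replicate 2 (-0.997), without EED-null replicate 1 (-0.89) and with a pseudocount of 5 (-0.98).

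A wider list of matrix proteins, matrix receptors and matrix-modifying enzymes, none of them among the 28, had 30 listed genes. Of these, 19 were already lower and 11 higher in EZHIP cells, on which genes were listed, and this tilts the counts and medians that follow. Against control, limma called 5 higher and 12 lower for K27M (4 and 17 after rescaling on the listed genes), where 41.4% and 20.0% of all listed genes were called. For EED-null it called 7 higher and 17 lower (5 and 18 after rescaling), where 39.9% and 25.1% were. Their median log2 difference was -0.70 in K27M and -1.19 in EED-null cells, where that of all listed genes was 0.58 and 0.40. For the 19 lower in EZHIP cells it was -1.10 and -1.77, beside -0.68 and -1.14 over all listed genes lower there. For the 11 higher it was 0.54 and 1.21, beside 1.61 and 1.93 over all listed genes higher there. In EZHIP cells, on which genes were listed, the medians of the 19 and the 11 were -1.34 and 1.37, beside -1.63 and 2.08. The lowest difference in both lines was in *Prelp*, a proteoglycan that anchors basement membranes, at -4.19 (SE 0.26) for K27M and -5.68 (SE 0.26) for EED-null. The highest was in *Slit3*, a guidance ligand, in K27M cells (5.20, SE 0.22), and in *Smoc2*, a matricellular protein, in EED-null cells (4.01, SE 0.20). *Eln*, elastin, which *Mmp12* can cut, was at 2478 and 2325 in control, 102 and 83.2 with EZHIP, 1388 and 1750 with K27M, and 73.5 and 95.9 without EED. It was called lower in EED-null cells (-4.82, SE 0.19) and not in K27M cells (-0.62, SE 0.19); it is singled out here after its values were seen.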

How the data were processed

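RNA was sequenced from 8 libraries of MEFs. Per the labels, the authors aligned reads to a transcriptome of mm9 and estimated reads per gene with RSEM 1.2.4, and the paper names EBSeq for differential expression. The deposited signal is the estimate divided by 1 size factor per library, scaled neither by length nor to a total. The table holds only genes past the 2-fold threshold between EZHIP and control. RNA of FFT cells had been added to each sample, and whether it entered the size factors is not given in the sources used here.

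Groups and replicate numbers came from the labels. In each library a constant, the worth of 1 read, was found from the low values, and between 71.8% and 82.3% of nonzero values were whole reads within 0.005 reads, so no count model was fitted. Intervals on reads cover counting error only and are exact. Replicates of each group differed by more than sampling noise. The chi-square per gene was 1.573 for control, 2.192 for EZHIP, 2.685 for EED-null and 4.853 for K27M. Genes were tested with limma 3.58.1 (R 4.3.3) on log2(value + 1), all 8 libraries in 1 fit, with Benjamini-Hochberg adjustment over 875 genes, and the script was tested on simulated data. Python 3.11.15, pandas 2.3.3, numpy 2.4.6, scipy 1.17.1 and matplotlib 3.10.9 were also used. Positions and transcript lengths came from GENCODE M1 (mm9), in which each of the 28 genes had 1 locus. RefSeq promoters matched 22 of the 28 genes.

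Values by library are given for the genes with the 5 largest EZHIP differences in each direction, the 8 largest called differences between K27M and EED-null, genes called in opposite directions (none with the reported settings), and the highest of each family, and for the remaining members by family. The members, lists and rules were chosen with earlier results of these data known. Alternatives were pseudocounts of 0.1 and 5, a mean of at least 5, rescaling on the listed genes, the 2 groups alone, a limma trend, the adjusted p-value alone, a replicate block and each library left out.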

Additional observations from a re-analysis of the deposited data

Results flagged for a closer look

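The 3 lines were all compared with the same control, and the differences between the lines were tested directly with limma. Between K27M and EED-null cells, 5 of the 28 genes were called higher and 10 lower in K27M, beside 27.8% and 26.6% of all listed genes (54.4% in either direction). Between K27M and EZHIP cells, 5 were called higher and 11 lower in K27M, beside 32.6% and 26.2% (58.7% in either direction). Between EED-null and EZHIP cells, 4 were higher and 7 lower in EED-null, beside 25.1% and 19.8% (44.9% in either direction). In either direction, 53.6%, 57.1% and 39.3% of the 28 genes were called in these comparisons, in the same order. Each share was below that of all listed genes, so the number of calls does not set the 28 genes apart. In the comparison with EED-null cells, the 4 genes of the MMP cluster were lower in K27M and *Timp3* was higher. Each line is 1 line or clone, so a difference between inhibitors and a difference between lines cannot be told apart. Groups of 2 libraries were not examined for single outlying libraries.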

How the results depend on the processing

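The counts of called genes kept within 1.5 times their reported value under every alternative run except the adjusted p-value alone. With that threshold, 8 genes in place of 5 were higher in K27M than in EED-null cells, 10 in place of 5 were higher in K27M than in EZHIP cells, 13 in place of 7 were lower in EED-null than in EZHIP cells, and 11 in place of 7 of the wider matrix list were higher in EED-null than in control cells. Rescaling on the listed genes moved the median of all listed genes by -0.43 for K27M and -0.39 for EED-null against control.

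Of 2688 single-gene values under an alternative, 2599 kept their direction and side of the threshold, 27 lost a call, 50 gained one and 12 changed sign. The changes of sign were in differences that were not called. With rescaling, *Mmp19* against control became -0.068 for K27M and -0.14 for EED-null, *Adam19* in EED-null against control -0.39, *Lama3* between K27M and EED-null -0.027 and *Itga11* between K27M and EZHIP -0.042. With each library left out, *Adam19* in EED-null against control ranged from -0.033 to 0.039, *Lama3* between K27M and EED-null from -0.26 to 0.32, and, between K27M and EZHIP, *Col19a1* from -0.75 to 0.33 and *Itga11* from -0.21 to 0.41. The cause was not tested.

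The labels tie same-numbered libraries by number alone, and whether they shared a batch is not given. Over the 6 pairs of groups, the correlation of their deviations lay between -0.0893 and 0.105, which cannot settle this. With the replicate block, 8 genes were higher and 14 lower for K27M against control, 7 and 15 for EED-null against control, and 5 and 10 for K27M against EED-null, the same counts as without it. With each library left out in turn, the counts between K27M and EED-null lay between 4 and 5 higher and between 8 and 11 lower, where the lone library of a group was assumed to vary like the other groups. Genes with a few reads in a group (*Mmp12*, *Col28a1*, *Col19a1*, *Col6a4*, *Adamts3* and *Adamts15*) are limited by depth.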
